A study of Homo sapiens with 8 samples.

Results

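Chemokines are small secreted proteins that guide the movement of leukocytes along concentration gradients and act through G-protein-coupled receptors on the target cell. They are grouped by the spacing of their first conserved cysteines into CXC and CC families, and the CXC ligands that carry a glutamate-leucine-arginine motif (ELR) attract neutrophils and promote the growth of blood vessels. Many of them have low basal transcription that rises with NF-κB activity, and their transcripts carry AU-rich elements that shorten their life. The set described here holds 10 human genes, CXCL1, CXCL2, CXCL3, CXCL5, CXCL8, CXCL10, CXCL12, CCL2, CCL5 and CCL20, of 60282 genes listed. The 10 genes were chosen by their measured values in the contrast of TP-472 with vehicle, so their levels and fold changes in that contrast are a description and carry no p-value.

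The measurements came from SK-UT-1, an established human uterine leiomyosarcoma (uLMS) cell line, which was the only cell model in these libraries. Vehicle cells received DMSO, and treated cells received 5 µM TP-472, a bromodomain inhibitor labelled as acting on BRD9 and BRD7, for 48 h, with 4 libraries in each group. BRD9 is a subunit of the non-canonical BAF chromatin remodelling complex. Total estimated counts ran from 32574716 to 36634184 in vehicle and from 36246466 to 38545695 in TP-472-treated cells. Against the label, the smooth muscle transcripts ACTA2 and TAGLN were present at 160.3 ± 16.7 and 32.3 ± 3.40 CPM (CPM, counts scaled to library size with TMM factors, as mean ± SD over 4 libraries) in vehicle, whereas MYH11, the smooth muscle myosin heavy chain, had 1 count in the 4 vehicle libraries. Vehicle replicate 3 stood apart. Its median Spearman correlation with the other vehicle libraries was 0.914, against 0.988 to 0.989 for the other vehicle libraries and 0.993 to 0.997 within TP-472, so values are also given without it.

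Promoter sequence was not used in choosing the genes. RefSeq promoters on GRCh38.p14, each with 250 bases before and 50 after the annotated start, were matched for 8 of the 10 genes, not for CCL2 and CCL5. A κB motif, written as GGNNTTTCC and searched on both strands, was found in 7 of the 8, against 6.26% of all 35116 promoters in the table. The stretches below show it in capitals, 5′ to 3′ on the strand of the gene, so that its place and number of copies can be compared between the genes. The first 6 run from base −140 to −21.
CXCL8, chr4:73740429-73740548, plus strand: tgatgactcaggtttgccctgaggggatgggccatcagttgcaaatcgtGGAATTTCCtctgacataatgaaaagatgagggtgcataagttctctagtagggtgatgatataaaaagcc
CXCL1, chr4:73869253-73869372, plus strand: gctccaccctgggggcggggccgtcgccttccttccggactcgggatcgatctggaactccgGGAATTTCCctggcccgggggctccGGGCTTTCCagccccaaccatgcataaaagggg
CXCL2, chr4:74099216-74099335, minus strand: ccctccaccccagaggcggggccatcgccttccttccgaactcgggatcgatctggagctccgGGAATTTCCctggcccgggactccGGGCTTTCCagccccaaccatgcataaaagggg
CXCL3, chr4:74038710-74038829, minus strand: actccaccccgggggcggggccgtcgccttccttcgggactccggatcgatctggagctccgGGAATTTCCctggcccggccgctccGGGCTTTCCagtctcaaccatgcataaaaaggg
CXCL5, chr4:73998698-73998817, minus strand: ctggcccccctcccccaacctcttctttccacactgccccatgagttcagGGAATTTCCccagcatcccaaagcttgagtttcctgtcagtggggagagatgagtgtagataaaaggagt
CCL20, chr2:227813702-227813821, plus strand: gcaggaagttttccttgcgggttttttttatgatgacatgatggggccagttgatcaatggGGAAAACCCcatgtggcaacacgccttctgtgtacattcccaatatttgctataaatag
In CXCL10, the 80 bases from base −240 on hold 2 motifs in capitals, an interferon-stimulated response element (ISRE, GAAANNGAA) and, after it, a κB match on the opposite strand.
CXCL10, chr4:76023658-76023737, minus strand: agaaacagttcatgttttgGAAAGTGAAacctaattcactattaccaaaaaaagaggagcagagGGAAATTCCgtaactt

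The plus-strand match GGAATTTCC stood in the promoters of CXCL8, CXCL1, CXCL2, CXCL3 and CXCL5. It began at base −91 in CXCL8 and −90 in CXCL5, and at −78, −77 and −78 in CXCL1, CXCL2 and CXCL3. The last 3 genes held another copy of the motif, GGGCTTTCC, at −53. Their printed stretches are alike over most of their length, so the matches in these 3 promoters are not independent of each other. In CCL20 the match was on the opposite strand at −79, and CXCL12 held none of the 5 motifs searched. The AP-1 motif TGANTCA, found in 7.71% of all promoters, was in 1 of the 8, CXCL8, at −137. The TATA motif TATAAA, in 11.5% of all promoters, began at −31 in CXCL8 and −29 in CCL20. The ISRE, in 8.11% of all promoters, was in CXCL2 at −217, CXCL3 at −233 and CXCL10 at −221, and the C/EBP motif TTGCNNAA, in 10.5%, was in CXCL2. Of 24 promoters of other chemokine ligand genes, 2 held the κB motif, 6 the AP-1 motif and 13 the TATA motif. A match is a string of letters and does not show binding of a factor. Sites that miss a string by 1 base were not counted, such as ttgcaaat before the κB match of CXCL8 for the C/EBP motif.

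**Figure D1:**
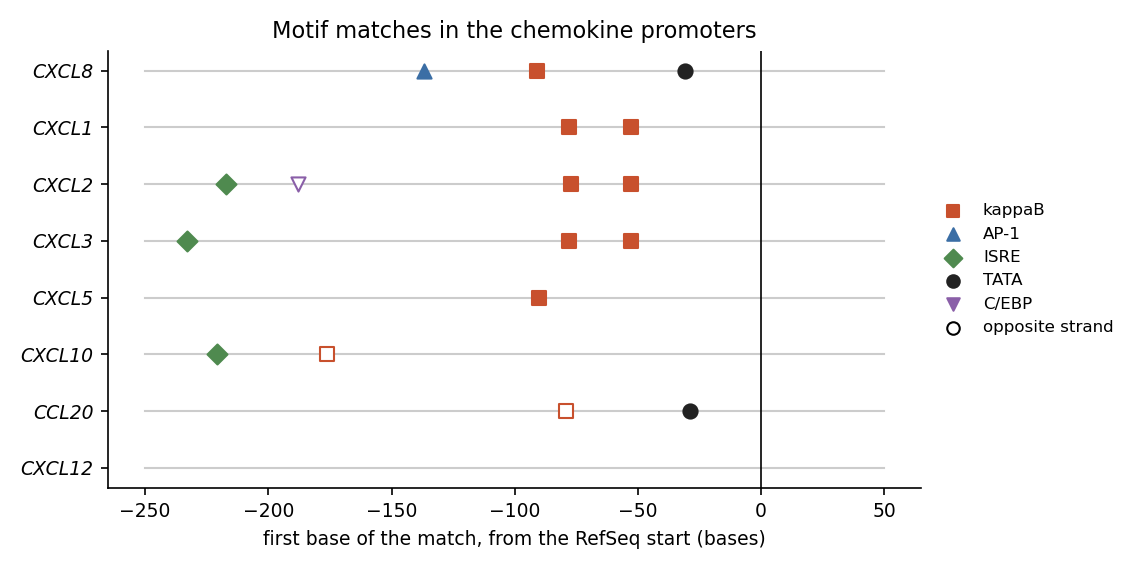
Matches to 5 motifs in 8 chemokine promoters, placed by the first base of the match on an axis of bases from the RefSeq start, with open symbols for matches on the opposite strand. CXCL1, CXCL2 and CXCL3 each carry κB matches near −78 and at −53, while CXCL8 and CXCL5 carry a single match near −90.

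CXCL8 encodes interleukin-8, a ligand of CXCR1 and CXCR2 and a strong neutrophil attractant. The gene lies at chr4:73740506-73743716 on the plus strand (GENCODE 29, GRCh38). Its level was 12.4, 16.99, 6.31 and 17.2 CPM in vehicle replicates 1 to 4 and 141, 164, 167 and 162 CPM in TP-472 replicates 1 to 4. The groups did not overlap, and vehicle replicate 3 was the lowest of the 8 libraries. The log2 fold change was 3.58 (SE 0.297) over all libraries and 3.35 (SE 0.127) without vehicle replicate 3.

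CXCL1, CXCL2 and CXCL3 encode the GRO chemokines, close relatives that act mainly on CXCR2. CXCL1 (chr4:73869393-73871242, plus strand) had 11.5, 12.7, 8.48 and 12.7 CPM in vehicle and 50.9, 49.9, 55.7 and 52.5 CPM in TP-472-treated cells. CXCL2 (chr4:74097035-74099293, minus strand) had 4.10, 4.91, 3.94 and 5.28 CPM in vehicle and 26.8, 26.9, 27.8 and 29.6 CPM in TP-472-treated cells. CXCL3 (chr4:74036589-74038807, minus strand) had 4.07, 5.26, 3.42 and 4.69 CPM in vehicle and 14.4, 14.1, 16.98 and 14.8 CPM in TP-472-treated cells. For each of the 3 genes, the lowest treated library lay well above the highest vehicle library. Their log2 fold changes were 2.20 (SE 0.147), 2.61 (SE 0.136) and 1.79 (SE 0.161), and 2.08, 2.54 and 1.68 without vehicle replicate 3. The GRO transcripts resemble each other. Of their sequences of 31 bases, 13.8% in CXCL1, 22.4% in CXCL2 and 9.54% in CXCL3 also occur in another of the 10 genes, so reads could be split between them by salmon's estimate. How many were split was not tested.

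CXCL5, another CXCR2 ligand (chr4:73995642-73998779, minus strand), differed least among the tested genes. Its level was 5.10, 5.98, 2.63 and 6.41 CPM in vehicle and 9.84, 7.13, 8.68 and 7.95 CPM in TP-472-treated cells. The groups did not overlap, but the gap between the highest vehicle and the lowest treated library was narrow. The log2 fold change was 0.74 (SE 0.260) and did not pass the limits for a call, which were an adjusted p under 0.05 and a fold change over 1.5. It was 0.52 without vehicle replicate 3, the library with the lowest value.

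CCL2, also known as MCP-1, attracts monocytes through CCR2 and lies at chr17:34255218-34257203 on the plus strand. It had 2.605, 5.06, 3.07 and 4.33 CPM in vehicle and 12.5, 12.3, 13.0 and 12.7 CPM in TP-472-treated cells. The groups were far apart, and here vehicle replicate 1 was the lowest library. The log2 fold change was 1.75 (SE 0.210), and 1.66 without vehicle replicate 3.

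CCL20, the ligand of CCR6 on dendritic cells and some lymphocytes (chr2:227805739-227817564, plus strand), was close to absent from vehicle cells. The vehicle libraries held 1, 1, 0 and 4 counts and the treated libraries 46, 42, 44 and 41, which is 0.0422 ± 0.0487 and 1.17 ± 0.0598 CPM (SD, n = 4 each). It passed the filter on low values only through the treated group. The ratio of the summed counts, TP-472 over vehicle, was 27.5 (exact 95% interval 12.4 to 75.9, which covers counting error only). Vehicle replicate 4 gave 4 of the 6 vehicle counts, and without it the fitted log2 fold change was 5.70 rather than 4.67.

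The other 3 genes did not pass the filter. CCL5, or RANTES, attracts T cells and monocytes and lies at chr17:35871491-35880793 on the minus strand. It had 1.69, 2.07, 0.926 and 1.41 CPM in vehicle and 0.932, 0.817, 0.999 and 0.423 CPM in TP-472-treated cells. Vehicle replicate 3 fell among the treated libraries, so the groups overlapped, and the fit without a filter gave a log2 difference of −0.95 (SE 0.347). CXCL10, an interferon-inducible ligand of CXCR3 (chr4:76021117-76023497, minus strand), had few counts, 43 in vehicle and 40 in TP-472, a ratio of 0.886 (exact 95% interval 0.562 to 1.396). CXCL12, the ligand of CXCR4 (chr10:44370165-44386493, minus strand), had no count in any of the 8 libraries, and 3 counts over a group would be 0.0213 CPM in vehicle and 0.0203 CPM in TP-472.

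**Figure D2:**
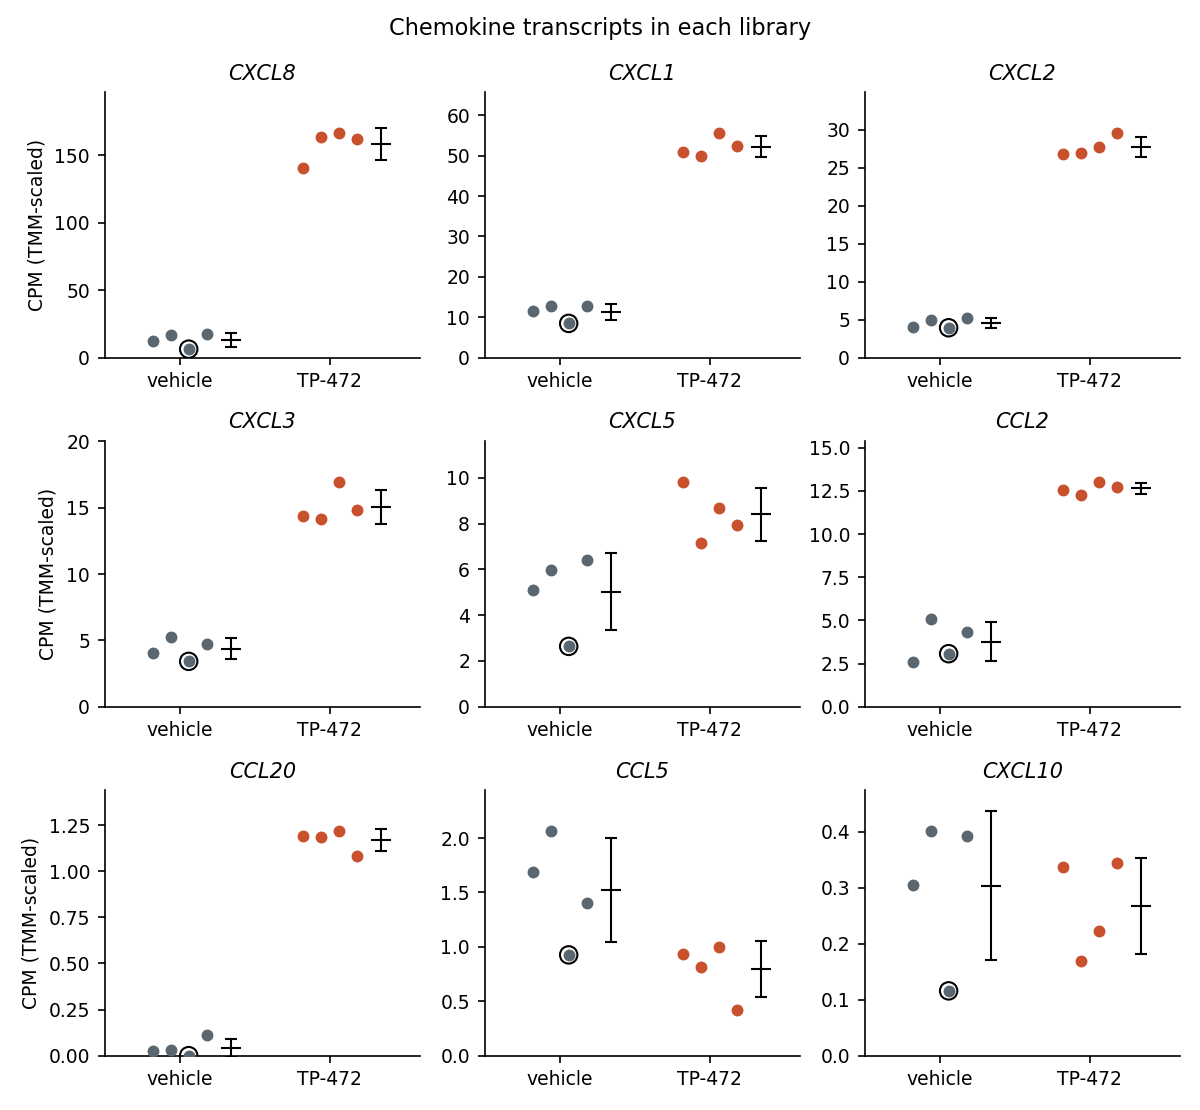
TMM-scaled CPM of 9 chemokine genes in each library (linear axes from 0), with vehicle in grey, TP-472 in red, the mean with its SD in black and vehicle replicate 3 ringed. CXCL12, at 0 in all 8 libraries, is left out. In 7 genes each treated library lies above each vehicle library, and in CCL5 and CXCL10 the groups overlap.

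Of the 10 genes, 7 passed the filter, 6 were called higher and none lower in edgeR's quasi-likelihood test, and 7 had no overlap with TP-472 above. Over all 14073 genes tested, 26.9% were called in either direction, 12.0% higher and 14.9% lower, and 23.8% had no overlap with TP-472 above. Since this contrast chose the genes, nothing is read from their count. The median log2 fold change of all genes tested was −0.026. The 6 calls held without vehicle replicate 3. Without any 1 TP-472 library CCL20 fell under the filter, which asks for over 1 CPM in 4 libraries, and 5 genes were called.

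**Figure D3:**
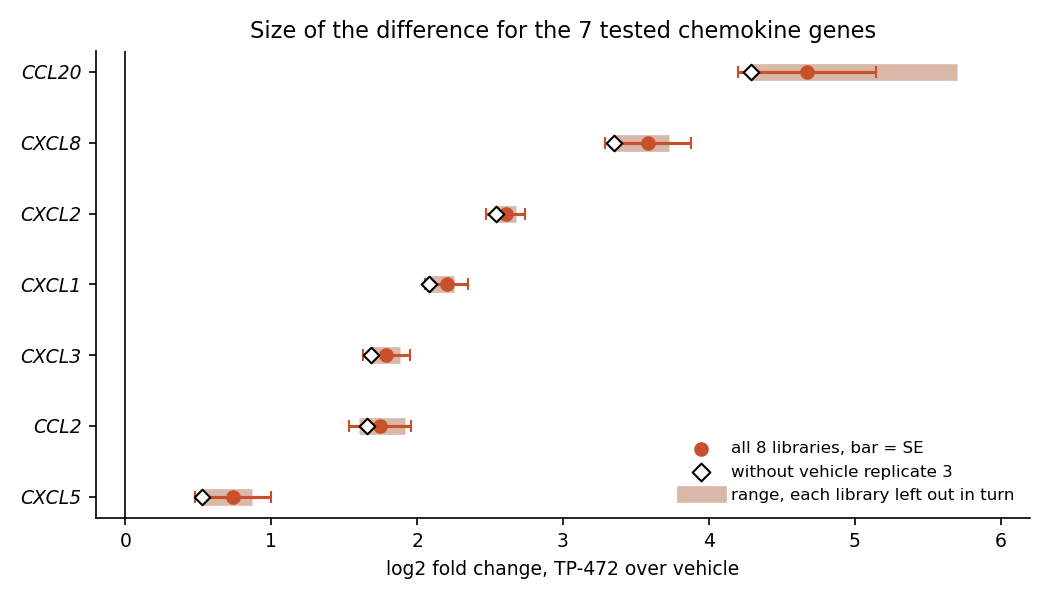
Fitted log2 fold change of TP-472 over vehicle for the 7 tested chemokine genes, with the SE as a bar, the range over fits with each library left out in turn as a pale band, and the fit without vehicle replicate 3 as an open diamond. The values run from 0.74 for CXCL5 to 4.67 for CCL20, whose band reaches 5.70 and covers only the 4 fits without a vehicle library, since it fell under the filter in the others.

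Expressed per kb of exon, the order of the genes differed between the groups. In vehicle, CXCL1 was first at 8.75 ± 1.53 CPM per kb, followed by CXCL8 at 5.81 ± 2.25 and CXCL2 at 3.04 ± 0.430 (SD, n = 4). The ranges of CXCL1 and CXCL8 overlapped across libraries, as did those of CXCL8 and CXCL2. Within each vehicle library, however, CXCL1 was above CXCL8 and CXCL8 above CXCL2. They were closest for CXCL8 and CXCL2 in vehicle replicate 3, at 2.78 and 2.62 CPM per kb, where CXCL1 was at 6.55. CXCL5, CXCL3 and CCL2 followed at 1.98, 1.97 and 1.90 CPM per kb and could not be ordered. The ranges of CXCL5 and CCL2 reached into that of CCL5 at 1.01, though both lay above it within each vehicle library. In TP-472-treated cells, CXCL8 was first at 69.6 ± 5.24 CPM per kb, then CXCL1 at 40.3 ± 1.96 and CXCL2 at 18.5 ± 0.873, with no overlap between these neighbours. The ranges of CXCL3 and CCL2 overlapped at 6.79 and 6.36 CPM per kb, though CXCL3 was the higher within each treated library. CXCL5 at 3.31, CCL20 at 0.734, CCL5 at 0.524 and CXCL10 at 0.228 CPM per kb came last.

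The summed level of the 10 transcripts was 41.8, 53.4, 28.9 and 52.5 CPM in vehicle and 258, 276, 291 and 282 CPM in TP-472-treated cells. CXCL8 made up 28.99 ± 4.95% of the sum in vehicle and 57.2 ± 1.92% in the TP-472 group (mean ± SD over 4 libraries). The 5 ELR genes together made up 87.2% and 94.6%.

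The spread within a group was not used in choosing the genes. In the TP-472 group, the SD of log2 CPM ran from 0.0374 for CCL2 to 0.195 for CXCL5, beside a median of 0.114 over all tested genes. In vehicle it ran from 0.201 for CXCL2 to 0.673 for CXCL8, beside a median of 0.341. Vehicle replicate 3 was the lowest vehicle library in 6 of the 7 tested chemokine genes, and in 43.7% of all genes tested. It lay 1.42 below the median of the other vehicle libraries for CXCL8 and 1.17 below for CXCL5 on the log2 scale. Without it, the vehicle SD was 0.269 for CXCL8, 0.0787 for CXCL1, 0.186 for CXCL2, 0.183 for CXCL3 and 0.167 for CXCL5, beside a median of 0.137 over all tested genes. That of CCL2 was higher without it, 0.493 against 0.434, and that of CCL20 was 0.580 against 0.664.

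The genes whose profile over the 8 libraries was most like each chemokine were found by the root mean square (RMS) difference of centred log2 CPM. For CXCL8 they were LPL, KBTBD8 and TTN, at 0.206, 0.215 and 0.225. For CXCL1 they were USP53, RND3 and DUSP5, at 0.111, 0.136 and 0.197. For CXCL2 they were DUSP6, IGFBP3 and FGF1, at 0.0795, 0.122 and 0.149. CXCL1 and CXCL2 were nearest to each other among the chemokines, at 0.222, and CXCL3 and CCL2 likewise, at 0.172. The list was LPAR3, MIR155HG and KLF10 for CXCL3, BEX1, LPAR3 and OLFM1 for CCL2, and for CXCL5 it included MTIF2 and TPMT. The profile of CCL20 rests on 6 counts in vehicle, so its nearest genes are not given. Of the genes named, LPL, TTN, FGF1, MIR155HG and OLFM1 had vehicle means of 0.432, 0.0990, 0.333, 0.815 and 0.688 CPM. Their distances thus also rest on low vehicle levels. The distance includes the contrast that chose the genes, so these profiles are a description.

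Of the 10 genes, 6 lie on chromosome 4, and 5 of these fall within the 359 kb from the start of CXCL8 to the end of CXCL2. The other ligand genes between them, CXCL6, PF4V1, PF4 and PPBP, had mean levels under 1 CPM in both groups. PPBP, which encodes a platelet chemokine, had 6 counts in vehicle and 34 in TP-472, a ratio of 5.40 (exact 95% interval 2.24 to 15.7). CXCL6 had 1 count in vehicle and 10 in TP-472, a ratio of 9.53 with an interval of 1.36 to 413. PF4V1 was at 0.625 ± 0.348 and 0.779 ± 0.173 CPM, and PF4 had 1 count in all 8 libraries together. The fold change of CXCL5, which lies 124 kb beyond the end of CXCL1, was smaller than those of CXCL1 and CXCL3, the described genes on either side of it.

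Beyond CXCL2, 14.9 kb separate its end from MTHFD2L, a mitochondrial folate enzyme gene, which rose from 28.7 ± 10.4 to 51.4 ± 2.71 CPM (edgeR adjusted p = 0.0360, log2 fold change 0.84, and 0.60 without vehicle replicate 3). Of 20 neighbouring genes listed around the chromosome 4 clusters, 6 were tested, 1 was called higher and none lower, and without vehicle replicate 3 SCARB2 was called lower, with a log2 fold change of −0.674. MTHFD2L was not called without any 1 TP-472 library. Of the EGF-family ligand genes beyond it, EPGN was tested and not called, at 10.2 ± 1.6005 and 13.4 ± 0.895 CPM (log2 fold change 0.39). EREG, AREG and BTC had few counts. EREG had 21 counts in vehicle and 146 in TP-472 (ratio 6.62, interval 4.18 to 11.0), and AREG had 10 and 140 (ratio 13.3, interval 7.04 to 28.4). BTC had 9 and 16, with overlapping groups (ratio 1.69, interval 0.705 to 4.35). CXCL10 lies 1922 kb beyond CXCL2 in the interferon-inducible cluster, where CXCL9 had no count and CXCL11 had 16 counts in vehicle and 72 in TP-472 (ratio 4.29, interval 2.47 to 7.90). On chromosome 17, CCL7 starts 13.0 kb beyond CCL2. Of 25 genes listed as neighbours of the chromosome 17 clusters, 8 were tested, 1 was called higher (NLE1) and 4 lower (SLFN5, SLFN13, RAD51D and TAF15), and RAD51D and TAF15 were not called without vehicle replicate 3. NLE1 and SLFN13 lost their calls under other alternatives.

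**Figure D4:**
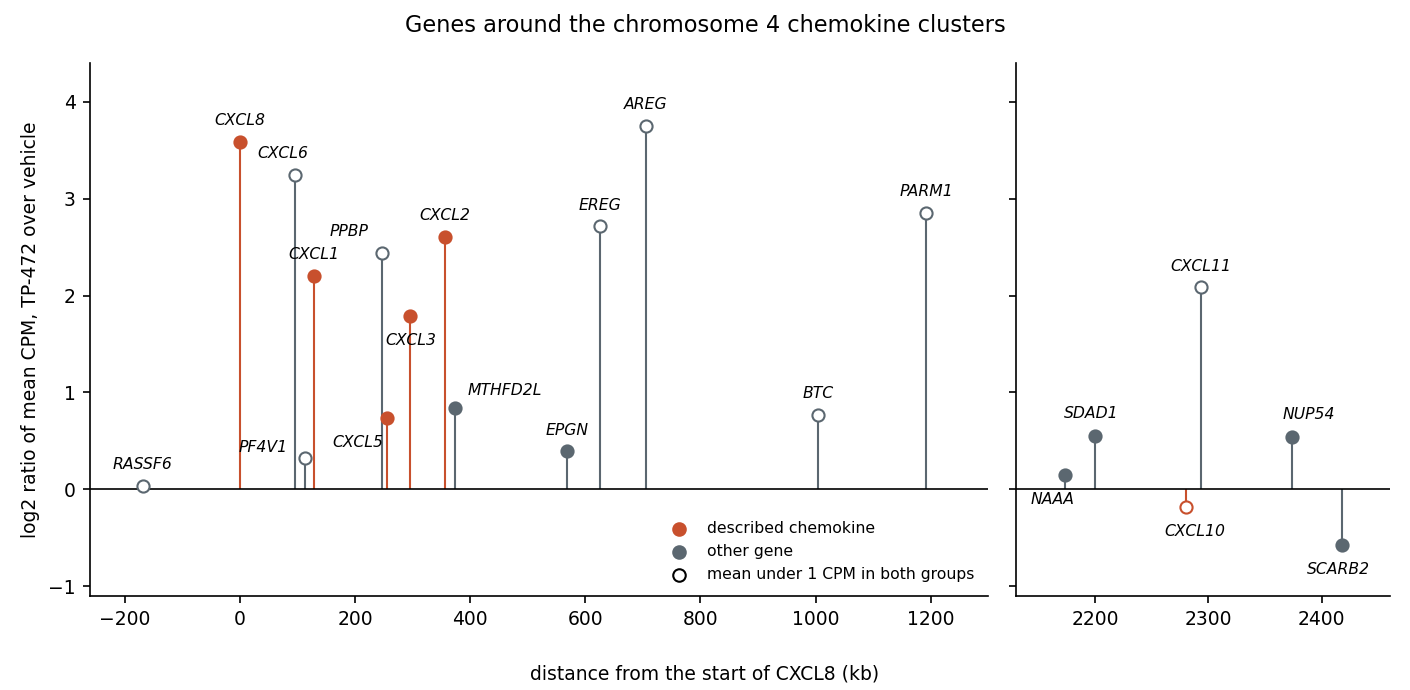
Log2 ratio of mean CPM, TP-472 over vehicle, for genes with at least 10 counts around the chromosome 4 chemokine clusters, placed by the distance of their start from that of CXCL8 in kb, with a break in the axis. The described chemokines are red, and open circles mark genes with a mean under 1 CPM in both groups. CXCL5 at 0.74 sits among CXCL1, CXCL3 and CXCL2 at 2.20, 1.79 and 2.61.

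Of 36 other chemokine ligand genes, 2 passed the filter and neither was called. CCL28 was at 3.99 ± 0.209 and 3.81 ± 0.198 CPM, and CXCL16, which binds CXCR6, was at 4.35 ± 2.16 and 3.24 ± 0.283 CPM (log2 fold changes −0.068 and −0.42, edgeR adjusted p = 0.699 and 0.297). Without vehicle replicate 3, which held 7.47 CPM of CXCL16, its log2 fold change was −0.038. Another 9 ligand genes had at least 10 counts but fell under the filter, and 12 had none. The clearest of these was CCL7, the monocyte attractant MCP-3, with 0.194, 0.144, 0.0579 and 0.197 CPM in vehicle and 0.984, 1.10, 1.30 and 1.61 CPM in TP-472-treated cells. Its groups did not overlap, and the ratio of summed counts was 8.39 (interval 5.33 to 13.9). CCL7 and PPBP reached the smallest p that the exact two-sided permutation test can give with 4 against 4 libraries, 0.0286. After adjustment over the 18 ligand and receptor genes so tested the value was 0.114. With this smallest p, an adjusted value under 0.05 needs many of the 18 genes to reach it, and 4 did. A single gene could not pass whatever its difference, so the adjusted values do not decide whether these genes differ. CXCL11 and CXCL14 were at 0.0571 before adjustment, CCL25 at 0.0857, and CXCL6, PF4V1, CCL27 and CX3CL1 at 0.257 to 0.914.

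Among 23 chemokine receptor genes, 1 was tested. CCR4, a receptor of T helper cells for CCL17 and CCL22, was at 0.0554, 0.0862, 0.0579 and 0.0562 CPM in vehicle and 1.16, 1.55, 1.61 and 2.32 CPM in TP-472-treated cells. It passed the filter only through the treated group, so its call, at a log2 fold change of 4.63 (SE 0.337), is given without a p-value. The counts were 9 in vehicle and 246 in TP-472, a ratio of 26.0 (interval 13.5 to 57.6). CXCR4, the receptor of CXCL12, had 10 counts in vehicle and 160 in TP-472 (ratio 15.2, interval 8.08 to 32.4), with no overlap between 0.0554 to 0.115 and 0.634 to 1.37 CPM. CCR1 went the other way, at 0.866 ± 0.0657 and 0.467 ± 0.142 CPM, also without overlap. The exact permutation test gave 0.0286 for both, its smallest value, and 0.114 after adjustment over the 18 genes, with the limit given above. CCRL2, ACKR3 and CCR3 were at 0.0571, and CCR7, CCR10 and ACKR2 at 0.8286 to 0.857. The receptors of the ELR ligands were close to absent, with 0 counts for CXCR1 and 7 for CXCR2 over all 8 libraries. CXCR3 and CCR6, the receptors of CXCL10 and CCL20, had 0 counts, and CCR2, the receptor of CCL2, had 3.

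The lists around the chemokine pathway were compared with the shares of all genes tested called higher and lower, 12.0% and 14.9%. Of 11 enzymes that cut or modify chemokines, 9 were tested, 1 was called higher and 3 lower, with a median log2 fold change of −0.36. MMP1, a collagenase, was at 0.0922 ± 0.0427 and 1.43 ± 0.327 CPM (13 against 212 counts) and passed the filter only through the treated group. DPP4, the dipeptidyl peptidase that trims the amino end of many chemokines, fell from 116 ± 24.9 to 56.3 ± 1.32 CPM. MMP14, a membrane metalloproteinase, fell from 135 ± 35.0 to 55.1 ± 5.10 CPM. QPCTL, which forms the amino-terminal pyroglutamate of CCL2, had a log2 fold change of −0.64 and was not called without vehicle replicate 3.

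Of 21 genes of the proteoglycans that hold chemokines at the cell surface and their heparan sulfate, 15 were tested, 2 were called higher and 3 lower, with a median of −0.35. SDC2 and SDC4, which encode syndecan cores, rose by 1.29 and 0.67 on the log2 scale, and SDC4 was not called without vehicle replicate 3. SDC3, GPC6 and GPC1 had log2 fold changes of −1.95, −1.04 and −1.42, and without vehicle replicate 3 those of SDC3 and GPC1 were −1.30 and −0.67. The call of GPC1 was lost under at least 1 other alternative.

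Of 33 cytokines and receptors that induce chemokines, 19 were tested, 5 were called higher and 4 lower, with a median of −0.20. IL6 had 0.0277, 0.0575, 0 and 0.197 CPM in vehicle and 2.43, 1.30, 1.58 and 2.38 CPM in TP-472-treated cells, a ratio of 27.3 for 287 against 10 counts (interval 14.7 to 57.6), and it too passed the filter only through the treated group. LIF, a cytokine of the IL6 family, rose from 8.94 ± 1.36 to 26.7 ± 1.35 CPM (edgeR adjusted p = 1.2e-04). IRAK2 and IL1RAP, which carry the signal of the interleukin-1 receptor, rose by 1.67 and 1.05 on the log2 scale. The receptor genes TNFRSF1B, TLR3, IL17RC and TNFRSF1A fell by 1.51, 1.36, 1.22 and 0.98. TNF itself had 5 counts over the 8 libraries, IL1A had 12 in vehicle and 64 in TP-472 (ratio 5.08, interval 2.72 to 10.3), and IL1B had 9 and 18.

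Of 20 NF-κB factors and inhibitors, 19 were tested, 3 were called higher and none lower, with a median of 0.12. The 3 encode inhibitors of the pathway. TNFAIP3 (A20, which edits ubiquitin on the signalling complex) rose from 6.54 ± 2.37 to 13.0 ± 0.897 CPM, and NFKBIB and NFKBIE by 0.69 each on the log2 scale (edgeR adjusted p = 0.0109, 0.0230 and 0.0190). NFKBIB and NFKBIE lost their calls in several fits with 1 library left out, the log2 fold change of NFKBIB falling to 0.57 and the log2 fold change of NFKBIE to 0.62 without vehicle replicate 1, with edgeR adjusted p up to 0.0652 and 0.0584 over the alternatives. NFKBIA, another inhibitor, was at 41.9 ± 6.14 and 60.5 ± 3.33 CPM and stayed under the fold limit. The subunit genes RELA, NFKB1, NFKB2, RELB and REL had log2 fold changes of −0.13, 0.23, 0.00062, 0.17 and 0.013, and none was called. Without vehicle replicate 3 these were 0.17, 0.24, 0.39, 0.50 and 0.0076, so RELA changed sign and NFKB2 and RELB moved up, all still under the fold limit.

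Of 17 factors of the interferon response, 15 were tested, none was called higher and 6 lower, with a median of −0.36. IRF9 and STAT2 encode parts of the complex that binds the ISRE. IRF9 fell from 54.9 ± 9.54 to 18.6 ± 2.09 CPM and STAT2 from 98.5 ± 12.0 to 37.1 ± 1.21 CPM, without overlap between the groups. IRF7 fell from 24.3 ± 7.94 to 8.55 ± 1.07 CPM. IRF2 and TYK2 also fell, and were not called without vehicle replicate 3. Of 11 genes listed for AU-rich element binding, its regulation or the decay of transcripts, all were tested and 1 was called. This was ZC3H12A, an endonuclease that degrades IL6 transcripts, with 4.06 ± 1.98 and 7.43 ± 0.927 CPM and overlapping groups. Its log2 fold change was 0.87 (edgeR adjusted p = 0.0445, and up to 0.113 over the alternatives, where the call was lost). None of the AU-rich element binding proteins was called over all libraries. Without vehicle replicate 3, TIA1 was also called, as lower, with a log2 fold change of −0.645. Whether any of these values bears on the chemokine levels was not tested.

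**Figure D5:**
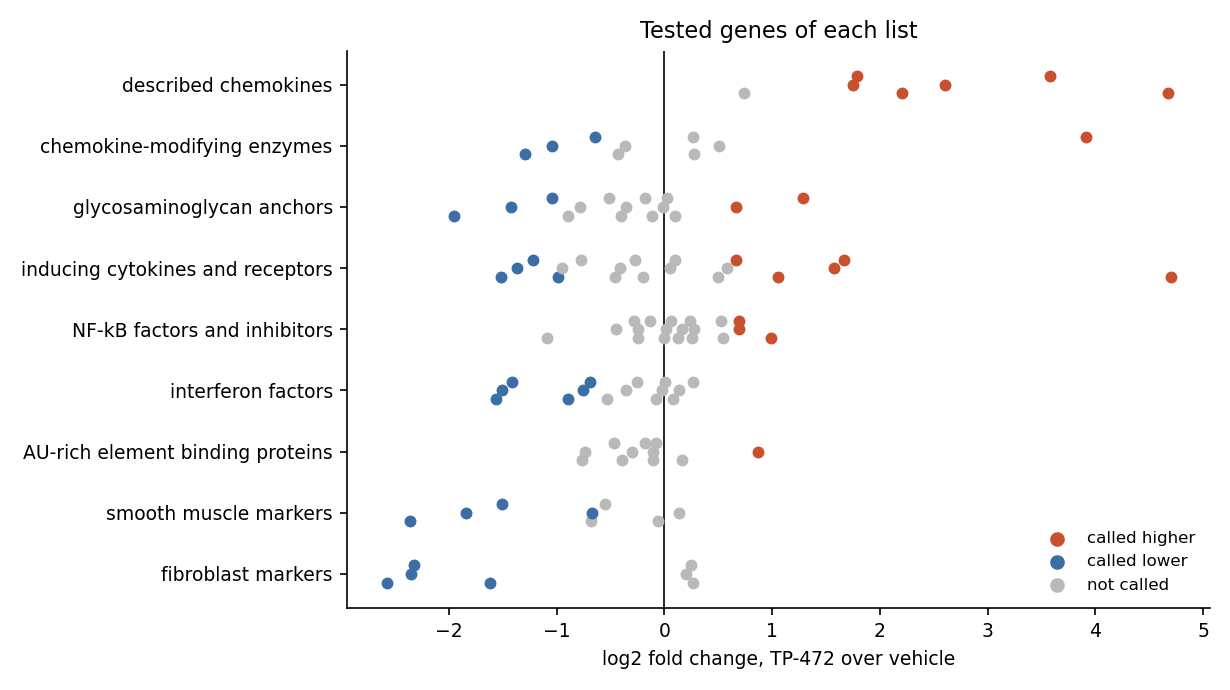
Fitted log2 fold change, TP-472 over vehicle, of each tested gene in 9 lists, with genes called higher in red, called lower in blue and not called in grey (points are shifted vertically only to part them). The 7 described chemokines lie right of 0, where the contrast that chose them placed them, while interferon factors called in the test lie on the left.

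Markers of other cell types were measured in the same libraries, since leukocytes and stromal cells also make chemokines. Of 14 leukocyte markers, 1 passed the filter, CD68, which was also the most abundant, at 7.53 ± 0.573 and 10.4 ± 1.48 CPM and not called. CD14 was at 0.584 ± 0.143 and 0.889 ± 0.123 CPM and ITGAM at 0.688 ± 0.141 and 1.24 ± 0.423 CPM. The groups did not overlap for these 3 of the 14, with TP-472 above. The share over all genes tested was 23.8%, which covers CD68 but not CD14 and ITGAM, both under the filter. The other 11, among them the myeloid markers CSF1R, LYZ and CD163 with 7, 14 and 6 counts in all, overlapped or had no count. CD3D, CD3E, MS4A1, NKG7 and TYROBP had no count in any library, and PTPRC (CD45), which all leukocytes carry, had 1 count in all. The summed level of the list was 7.79, 9.08, 9.35 and 9.16 CPM in vehicle and 14.8, 13.2, 11.5 and 11.5 CPM in TP-472-treated cells. None of 8 endothelial markers was tested, with a summed level of 0.484 ± 0.136 and 1.10 ± 0.218 CPM. CLDN5, the most abundant in vehicle, had 34 counts there and 31 in TP-472, and ERG, the most abundant in TP-472-treated cells, had 17 and 45. PECAM1 (CD31) had 2 counts in vehicle and 29 in TP-472 (ratio 13.8, interval 3.49 to 119), CDH5 had 0 and 11, and VWF had 13 and 30 (ratio 2.20, interval 1.11 to 4.59). These last 3 genes did not overlap between the groups, with TP-472 above, while the other 5, CLDN5, ERG, TEK, KDR and TIE1, overlapped. All 8 were under the filter, so the share of 23.8% covers none of them. Their part in the chemokine levels was not tested. Of 7 epithelial markers, 3 were tested, and the list summed to 20.1 ± 2.69 and 25.0 ± 2.82 CPM. KRT19, the most abundant in vehicle, fell by 0.85 on the log2 scale, and KRT18, the most abundant in TP-472-treated cells, rose by 1.08. The call of KRT19 was lost under at least 1 alternative. Under the filter, EPCAM was at 0.731 ± 0.0983 and 0.245 ± 0.0477 CPM, without overlap and with TP-472 below, while CDH1, CLDN4 and ESRP1 overlapped. Of 12 smooth muscle markers, 8 were tested, none was called higher and 4 were called lower, namely DES, LMOD1, MYLK and TAGLN, with log2 fold changes of −2.36, −1.84, −1.503 and −0.67. DES and LMOD1 passed the filter only through the vehicle group, and fell under it without any 1 vehicle library. Without vehicle replicate 3, ACTA2 was called lower, with a log2 fold change of −0.599, against −0.551 and no call over all libraries. Under the filter, MYH11 had 1 count in vehicle and 35 in TP-472 (ratio 33.3, interval 5.60 to 1354) and SYNPO2 had 13 and 68 (ratio 4.98, interval 2.73 to 9.83), both without overlap and with TP-472 above. Of 9 fibroblast markers, 7 were tested and 4 fell, COL1A2, COL1A1, PDGFRB and COL3A1, with log2 fold changes of −2.58, −2.35, −2.32 and −1.62, and −1.46 for COL1A1 without vehicle replicate 3. The log2 fold change of COL1A1 ran from −2.42 to −2.21 without any 1 TP-472 library and was −1.80 with libraries of the same number treated as paired, and it was not called in these fits. It was −0.75 with limma-voom and quality weights. In bulk libraries, fewer cells with a transcript and less transcript per cell cannot be told apart.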

How the data were processed

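Total RNA of SK-UT-1 cells was sequenced in 4 vehicle and 4 TP-472 libraries. The methods describe strand-specific total RNA libraries, and the labels a TruSeq RNA kit. The values deposited by the authors are estimated counts per gene, made with Salmon 1.4.0 and summed with tximport and GENCODE 34 (reads were also mapped with STAR 2.6.1d). They were not normalized, and depth is given in the report.

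Estimated counts were rounded, genes with over 1 CPM in at least 4 of 8 libraries were kept (14073) and scaled by TMM, and TP-472 was tested against vehicle in edgeR 4.0.16 (R 4.3.3; quasi-likelihood F test), Benjamini-Hochberg adjusted. A gene was called at an adjusted p under 0.05 and a fold change over 1.5. DESeq2 1.42.0, limma 3.58.1, other scalings and filters, a replicate block and leaving out each library were tried. The study's methods state biological replicates for all experiments. The labels do not say whether these libraries came from separate cultures, so p-values measure the spread between the libraries. Groups came from the treatment labels. The edgeR step was tested on simulated data. Of 108 genes simulated with a log2 change of 1, 53 were called, and of 92 with a change of 2, 88 were called. Of the genes simulated without a change, 12 were called. A gene that was not called may therefore still differ by a log2 change near 1.

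Ligand and receptor genes under the filter with at least 10 counts were tested by exact two-sided permutation of CPM, ratios of summed counts have exact 95% binomial intervals, and profiles were compared as log2 CPM (prior count 2). Exon lengths and positions are from GENCODE 29 (GRCh38), promoters from RefSeq.

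The members and lists were chosen with earlier results of these data known. Named are all members, ligands and receptors with at least 10 counts, of each other list up to 4 called genes a direction with the largest change, and the 3 nearest profiles per tested member except CCL20, left out for its low vehicle counts. Other genes named (IRF2, TYK2, ACTA2, NFKBIA, the NF-κB subunits, TNF, IL1A, IL1B, EPGN, EREG, AREG, BTC, MYH11, SYNPO2, TIA1, SCARB2, PF4, low receptors, and leukocyte, endothelial and epithelial markers) were chosen after their values were seen. Some genes that the rule names are not reported here.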

Additional observations from a re-analysis of the deposited data

Results flagged for a closer look

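In 14 of 106 sets of 4 libraries, the gap between the most extreme library and its nearest neighbour was too large a share of the range of the set by the 95% limit of Dixon's test, where chance gives about 1 in 20. None of the 10 chemokine genes was among them, and 8 of the 14 were set by vehicle replicate 3. That library was the lowest in vehicle for DPP4 at 78.5 CPM (gap ratio 0.840) and TLR3 at 11.8 CPM (0.873). It was the highest in vehicle for GPC1 at 115 CPM (0.931), IL17RC at 39.6 CPM (0.928), MMP14 at 187 CPM (0.928), NFKBIE at 14.7 CPM (0.921), TNFRSF1A at 116 CPM (0.853) and ZC3H12A at 7.01 CPM (0.875). Vehicle replicate 2 was the highest for CCR4 at 0.0862 CPM (0.919), a difference of single counts, and vehicle replicate 1 the lowest for TAGLN at 27.2 CPM (0.896). In the TP-472 group, replicate 4 was the lowest for COL3A1 at 134 CPM (0.969), replicate 2 the highest for IRF7 at 10.2 CPM (0.900), and replicate 3 the highest for IRAK2 at 5.99 CPM (0.900) and TNFRSF1B at 2.91 CPM (0.842).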

How the results depend on the processing

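The number of genes called was 3789. With 1 library left out it ran from 2486 (without TP-472 replicate 3) to 4110 (without vehicle replicate 2), and it was 5598 with DESeq2, 5090 with no filter and 3493 with limma-voom and quality weights. Of the 10 chemokine genes, 6 were called, 5 with a filter on mean CPM or without any 1 TP-472 library (CCL20 then fell under the filter), 7 with total-count scaling or without vehicle replicate 4 (CXCL5 added), and 8 with DESeq2, which added CXCL5 as higher and CCL5 as lower. The log2 fold change of CCL20, 4.67, moved beyond the spread between replicates to 3.86 with limma-voom and to 5.70 without vehicle replicate 4. Of the other ligand genes 0 were called, and 3 with no filter or with DESeq2 (CCL7, CXCL11 and PPBP). Of the receptor genes 1 was called, 2 with no filter, 4 with DESeq2 and 0 with a filter on mean CPM, and from 0 to 1 with 1 library left out. CXCL16 changed sign to 0.0266 with limma-voom from −0.42, neither called. Among the 44 other genes named from the lists, 13 were still tested but lost their call under at least 1 alternative. These were COL1A1, GPC1, KRT19, MTHFD2L, NFKBIB, NFKBIE, NLE1, QPCTL, RAD51D, SDC4, SLFN13, TAF15 and ZC3H12A. Genes that fell under the filter in a fit are not counted among them. CCR4, IL6 and MMP1 did so without any 1 TP-472 library, and DES and LMOD1 without any 1 vehicle library. CCL20 and CXCL10 rest on 179 and 83 counts over all 8 libraries, and CXCL12 on 0.

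The leave-one-out fits kept the filter of over 1 CPM in at least 4 libraries. After they were seen, they were repeated with a filter in 3 libraries, an alternative chosen after seeing the data. CCL20 and CCR4 were then called in all 8 fits. The number of genes called ran from 2744 to 4322, chemokine genes from 6 to 7, other ligands from 0 to 1 (CCL7) and receptors from 1 to 3. Without vehicle replicate 3, CCL5 then passed the filter and was called lower, with a log2 fold change of −1.12.

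A replicate block (libraries with the same number treated as paired) gave 3055 genes and 6 chemokine genes. The same-numbered libraries' deviations correlated at −0.0554, 0.116, −0.171 and −0.177. The largest value over all pairs was 0.398, between vehicle replicate 1 and TP-472 replicate 4. With 4 libraries a group, these values do not show whether any libraries shared a culture or batch.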
